A study of Mus musculus with 4 samples.

Results

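Knockdown of hnRNPL in differentiating myotubes was followed here through 1 pair of polyA RNA-seq libraries of C2C12, a mouse myoblast line that leaves the cell cycle and fuses into myotubes once it is moved to differentiation medium (DM). One culture received a siRNA against the mRNA of hnRNPL (si-hnRNPL) and the other a scrambled siRNA (si-NC), each a day before the move to DM, and both were collected at DM 48 h. The tables of the pair hold 24992 joined entries under 24438 symbols, and the 11090 entries (44.4%) with at least 1 FPKM in both libraries are described. FPKM is a number of sequenced fragments scaled by transcript length and library size. A total RNA pair of untransfected cells, depleted of rRNA, is used for comparison, with myoblasts at DM -24 h (MB) and myotubes at DM 72 h (MT). Each condition has 1 library, and a single siRNA was sequenced, so the differences below were not checked by replicates and carry no p-values.

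HnRNP L is an abundant nuclear RNA-binding protein that recognises CA-rich sequence and is best known for its control of alternative splicing, and it also binds noncoding RNAs and takes part in transcription and mRNA stability. In muscle cells, differentiation couples withdrawal from the cell cycle to activation of the sarcomere genes by the MyoD family of transcription factors. A siRNA acts through its guide strand, which directs cleavage of a fully matched mRNA and can lower other mRNAs that match only the seed, guide bases 2 to 8.

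The guide strands of both siRNAs, with the seed in capitals, are shown because they define the comparison.
si-hnRNPL: aUGGUAAAcagaagcacgc
si-NC: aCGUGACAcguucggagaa

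The si-hnRNPL guide matched in full a 19-base site at chr7:29599064-29599082 (mm9, + strand), inside a coding exon of Hnrnpl at chr7:29598873-29599110. Among annotated transcripts no other gene held the whole site, which starts at base 1127 of the longest Hnrnpl transcript (2679 bases). The exon is printed with the site in capitals.
Hnrnpl exon: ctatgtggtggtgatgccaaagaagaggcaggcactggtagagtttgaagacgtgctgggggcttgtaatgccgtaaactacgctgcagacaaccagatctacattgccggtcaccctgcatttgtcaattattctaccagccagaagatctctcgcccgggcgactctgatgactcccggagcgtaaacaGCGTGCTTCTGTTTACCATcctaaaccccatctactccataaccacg

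Hnrnpl itself (chr7:29595909-29607285) was at 95.1 FPKM in si-NC (95% Cufflinks interval 92.7 to 97.48) and at 85.9 FPKM in si-hnRNPL (83.1 to 88.7). The mRNA in the library labelled si-hnRNPL was thus 90.4% of the control level, a log2 change of -0.14 (interval -0.20 to -0.09), and the intervals of the libraries did not overlap. The protein was not measured in these files, so the labels are checked only by this small difference in mRNA. It is a weak check. Separately, the paper examined the knockdown of the protein by Western blot, in cells transfected and moved to DM by the same scheme. The lower quartile of the change over all 11090 entries was -0.135, and 47.5% of them had an interval without 0. A fall of this size thus did not set Hnrnpl apart. For scale, the same mRNA stood at 111 FPKM in MB and 63.0 FPKM in MT of the total RNA pair.

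The close relatives of hnRNPL stayed inside a 1.5-fold difference. Ptbp3 and Ptbp2, splicing repressors that bind pyrimidine-rich RNA, went from 37.1 to 29.4 FPKM (log2 -0.32) and from 21.7 to 18.1 FPKM (log2 -0.25). Ptbp1 was at 63.8 and 62.2 FPKM, and Hnrnpll, the paralog of hnRNPL, at 30.4 and 32.7 FPKM (log2 0.10). Of 22 other hnRNP genes none passed the 1.5-fold difference in FPKM + 1 and 2 were lower by 1.2-fold, Hnrnpa3 (log2 -0.27) and Hnrnpd (log2 -0.28), whose estimate in si-hnRNPL Cufflinks marked as failed. None of 12 SR proteins, the other large family of splicing factors, passed even the 1.2-fold difference. Their median was -0.12, and Srsf10, Srsf1 and Tra2a were the farthest from 0 (log2 -0.25, -0.24 and -0.18). Among 11 splicing regulators of muscle, Rbm24 was at 9.39 and 13.03 FPKM (log2 0.43), Rbm38 at log2 0.36 and Mbnl3 at log2 -0.37.

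The libraries differed in depth and in rRNA. The widths of the Cufflinks intervals imply 2.13411e+07 fragments for the control and 1.45925e+07 for the knockdown. Genes of small RNAs and rRNA held 0.555% of all FPKM with si-NC against 1.63% with si-hnRNPL, and Rn45s, the rRNA precursor, held 0.355% and 0.834% of the implied fragments. The labelled cell type is myoblasts, while all 8 myotube markers examined were above 1 FPKM in both libraries, with a summed level of 2133 FPKM in si-NC and 3034 FPKM in si-hnRNPL against 57.6 FPKM in MB. The 6 markers of myoblasts and reserve cells, including Pax7 and Myf5, summed to 138 and 112 FPKM, against 68.1 FPKM in MB and 90.25 FPKM in MT. Their sum was not higher in MB than in MT, so in these data it does not single out myoblasts. Markers of other lineages were low or few, with sums of 0.514 and 0.464 FPKM for 6 endothelial genes and 0.913 and 0.714 FPKM for 7 neuronal and glial genes. Blood and immune markers summed to 3.34 and 2.65 FPKM over 8 genes, 3 of them at 0 in both libraries. Of 7 adipocyte markers 3 were at 0 in both, and the sums were 12.01 and 14.1 FPKM. Bone and cartilage markers summed to 36.02 and 30.2 FPKM over 9 genes. Smooth muscle markers, several of which C2C12 cells also express, summed to 1106 and 1423 FPKM over 7 genes. Since whole cultures were sequenced, more or fewer cells of a kind and more or less RNA per cell cannot be told apart in any result below.

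Knockdown left most transcripts near their control level. The change, log2 of the ratio of FPKM + 1 in si-hnRNPL to FPKM + 1 in the control, had a median of -0.01 and an SD of 0.23 across members, and its central 95% ran from -0.42 to 0.45. At an absolute change of 0.58 or more, a 1.5-fold difference in FPKM + 1, 126 entries (1.14%) were up and 84 (0.757%) were down. The study's methods name a fold change above 1.5 but no added 1. At 0.26 or more, a 1.2-fold difference, 1037 (9.35%) were up and 965 (8.7%) were down, and these shares are the background for every list below. The 95% interval of a change reached 0.13 to either side of it in the median, so a 1.5-fold difference was well outside the error within a library for most genes. Such an interval covers fragment counting and assignment only, and 47.5% of all members had one without 0. The balance of the calls rested on the scale. With FPKM rescaled to a common sum over the entries that are not small RNA or rRNA genes, 106 were up and 227 down at 0.58, so that 31.8% of the calls were up against 60% as deposited, and the median of all members moved by -0.096. The members nearest the limit were Chchd7 (0.583) and Nrep (0.584) just inside and Hist1h2be (0.579) and Snrnp25 (0.577) just outside. On the lower side they were Sgo2a and Map2 (both -0.581) just inside and Kif4 (-0.578) just outside.

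Of the 126 entries up, 86 were protein-coding, 26 were small RNA or rRNA genes and 10 long noncoding RNA genes; of the 84 down, 78 were protein-coding. The interval of the change lay away from 0 for 81 of the 86 and for all 78.

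**Figure D1:**
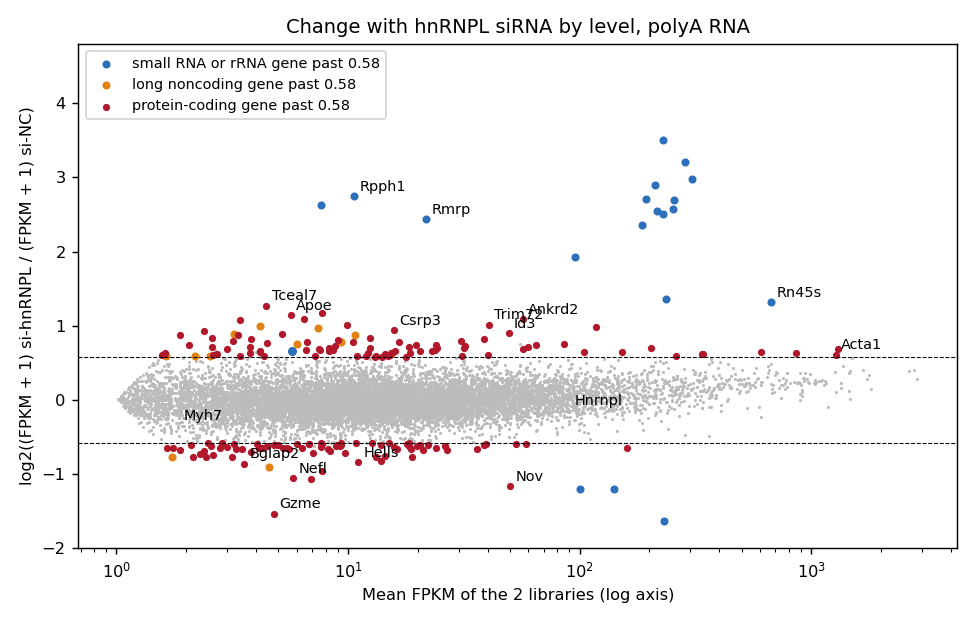
The log2 change of each of the 11090 entries (vertical axis) is plotted against its mean FPKM in the 2 libraries (log axis), with dashed lines at 0.58 and -0.58 and colours for the gene type of entries past them. Most entries lie between the lines, 126 are above and 84 below, and the points with changes over 2 are small RNA genes.

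Several of the largest protein-coding increases were in genes of striated muscle. Ankrd2, a titin-associated ankyrin repeat protein (chr19:42110528-42119600), was at 36.01 FPKM with si-NC and 77.6 FPKM with si-hnRNPL (log2 1.09, with the lower end of the interval at 0.97). Trim72, which takes part in membrane repair in muscle, was at 26.5 and 54.5 FPKM (log2 1.01, interval 0.93 to 1.09). Csrp3, the muscle LIM protein of the Z-disc, was at 10.5 and 21.0 FPKM (log2 0.94, interval 0.69 to 1.19). All 3 were near 0 in MB and at 36.1, 32.8 and 23.0 FPKM in MT.

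Genes of secreted and matrix proteins were found at both ends. Apoe, a lipid carrier, was at 3.14 and 8.16 FPKM (log2 1.15), and Fbln7, a fibulin of the matrix, at 4.34 and 11.04 FPKM (log2 1.17). Aspn and Omd, small leucine-rich proteoglycans, were at 6.24 and 13.6 FPKM (log2 1.01) and at 2.08 and 4.63 FPKM (log2 0.87). These 2 genes stand next to each other on chromosome 13 with Ogn of the same family, which was at 195 and 278 FPKM (log2 0.51) and did not reach 0.58. In the other direction, Nov, a secreted protein of the CCN family (chr15:54577483-54585316), was at 69.9 FPKM in si-NC (interval 68.0 to 71.8) and 30.6 FPKM in si-hnRNPL (29.0 to 32.2), a log2 change of -1.17. Colec10, a collectin on the same chromosome (chr15:54242329-54297913), was at 9.70 and 4.11 FPKM (log2 -1.07).

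The lowest change of all protein-coding genes was that of Gzme, a granzyme protease (chr14:56736456-56739462), at 7.63 and 1.97 FPKM (log2 -1.54, interval -1.94 to -1.14), the latter from 30 implied fragments. Nefl, the light neurofilament chain, was at 8.18 and 3.41 FPKM (log2 -1.06), and L1cam, a cell adhesion molecule, at 10.5 and 4.89 FPKM (log2 -0.96). A further group acts in DNA replication and its chromatin. Hells, a chromatin remodeller, was at 14.4 and 7.61 FPKM (log2 -0.84), Dck, the kinase of the deoxycytidine salvage pathway, at 18.0 and 9.75 FPKM (log2 -0.83), and Atad2, a bromodomain ATPase, at 23.9 and 13.7 FPKM (log2 -0.77). Cdc6, which loads the replicative helicase, was at 3.51 and 1.70 FPKM (log2 -0.74). The remaining genes among the 15 lowest were Bglap2, Rarres2, Prrg4, Garnl3, Lrr1 and Sirpa, between log2 -0.86 and -0.75.

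The other genes among the 15 highest were Tceal7 (2.19 and 6.68 FPKM, log2 1.27), Scand1, Zfp771, Lars2, 1700003F12Rik, Id3, Zfp580 and Fmc1. Lars2, the mitochondrial leucyl-tRNA synthetase, was the most abundant of them, at 78.7 and 156 FPKM (log2 0.98). These values came from 1929 and 1993 implied fragments for a transcript of 3881 bases. Ankrd2, with 1100 bases and lower FPKM, had 1068 and 1493. Whether reads of other genes were counted in Lars2 was not tested, so its change is uncertain. Id3, an inhibitor of the bHLH factors of the MyoD family, was at 34.1 and 64.5 FPKM (log2 0.90).

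**Figure D2:**
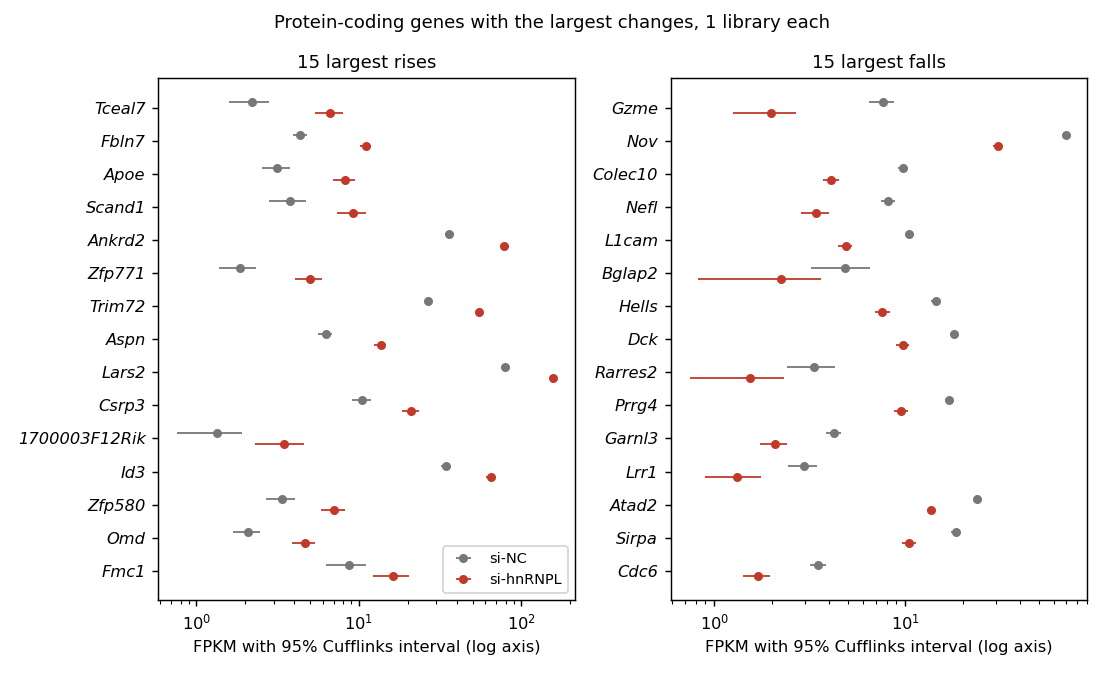
FPKM (log axis) of the 15 protein-coding genes with the largest increase and the 15 with the largest decrease is plotted for si-NC (grey) and si-hnRNPL (red), 1 library each, with lines for the 95% Cufflinks interval. Where no line shows, the interval is narrower than the point; Ankrd2 stands at 36.01 and 77.6 FPKM and Nov at 69.9 and 30.6 FPKM.

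The sarcomere genes were higher together in si-hnRNPL. Over 8 lists of muscle genes (myosins, thin filament, Z-disc, calcium release, acetylcholine receptor, fusion, dystrophin complex and muscle energy supply), 12 of 120 members were up at 0.58 and none down. At 0.26 there were 48 up and 5 down, and the median was 0.19 against -0.01 over all members. The change also differed by level. The 775 members with a mean of 100 FPKM or more had a median of 0.13, against -0.05 at 5 to 10 FPKM. Acta1, Tnnc1, Tnnc2, Mylpf and Myl1, given below, belong to the former class. The step for length and GC content further on did not take level out, and the part of level in the list medians was not tested. Of 16 thin filament genes 3 were up at 0.58 and 13 at 0.26, with none down and a median of 0.41. Acta1, skeletal actin, was at 1009 and 1537 FPKM (log2 0.61). Tnnc1 and Tnnc2, the calcium-binding troponins, were at 677 and 1047 FPKM (log2 0.63) and at 265 and 408 FPKM (log2 0.62). The exceptions included Tpm3, the slow tropomyosin gene, at 183 and 163 FPKM (log2 -0.17), and Neb, nebulin, at log2 0.06.

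Of 10 myosin genes 3 were up at 0.58, Mylpf, Myl1 and Mybph. Mylpf, the fast regulatory light chain (chr7:134352413-134357801), was at 998 and 1612 FPKM (log2 0.69, interval 0.60 to 0.78), Myl1 at 269 and 415 FPKM (log2 0.62), and Mybph, a myosin-binding protein, at 209 and 315 FPKM (log2 0.59). The embryonic heavy chain Myh3 was at 162 and 209 FPKM (log2 0.36), and the slow heavy chain Myh7 was low and on the other side, at 2.19 and 1.5 FPKM (log2 -0.35). At the Z-disc, 2 of 20 genes were up at 0.58 and 7 at 0.26, with Csrp3 and with Myoz2, a calcineurin-binding protein, at 24.6 and 37.7 FPKM (log2 0.59). The giant Ttn was at 4.81 and 4.20 FPKM (log2 -0.16). Ttn, Neb and Myh7 have long transcripts, and the change followed transcript length, as described further on. With length and GC content taken out, Ttn was at 0.007, and 1 of the 10 myosin genes was still down at 0.26. The part of length in the values of Ttn, Neb and Myh7 was not tested.

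No gene of calcium release or of the acetylcholine receptor passed 0.58. At 0.26, 7 of 18 calcium genes were up and 1 down, among them Stac3 (log2 0.41) and Srl (0.37), Casq2, the calcium store protein, at 133 and 171 FPKM (log2 0.37), and Cacna2d1 at 25.9 and 21.0 FPKM (log2 -0.30). Of 10 receptor and synapse genes 3 were up, with Chrng, the embryonic receptor subunit, at 77.8 and 105 FPKM (log2 0.43), Chrnd at log2 0.36 and Dok7 at log2 0.27. The fusion genes were mixed. Mymx (myomixer) was at 81.0 and 127 FPKM (log2 0.65) and its partner Mymk (myomaker) at 204 and 276 FPKM (log2 0.43), while the adhesion genes Jam2 and Cdon were at log2 -0.52 and -0.30, and the list's median was 0.03. Of 14 genes of the dystrophin complex none passed 0.58 and 2 were up at 0.26.

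Among 14 genes of muscle energy supply 3 were up at 0.58, Ckm, the muscle creatine kinase, at 45.0 and 74.3 FPKM (log2 0.71), Cox8b at 9.29 and 15.7 FPKM (log2 0.70) and Fabp3 at 4.86 and 8.34 FPKM (log2 0.67). Mb, myoglobin, was at 9.39 and 9.72 FPKM (log2 0.05), with an interval of -0.22 to 0.31 that holds 0. Mb, Igsf3 and Apol6 lie near the super-enhancer RNAs seRNA-1 and seRNA-2 that the study examined. Igsf3 was at 11.02 and 11.4 FPKM (log2 0.05, interval -0.03 to 0.13), and Apol6 was under 1 FPKM in both. With hnRNPL siRNA, the paper found lower Mb and Apol6 and unchanged Igsf3 by qRT-PCR, and less Mb transcription in a nuclear run-on assay. Those were separate measurements with repeats, while the values here rest on 1 library each.

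The myogenic factors themselves differed less. Of 16, Id3 alone was up at 0.58. Myog, myogenin, was at 175 and 249.4 FPKM (log2 0.51, interval 0.46 to 0.56), Myod1 at 43.6 and 49.0 FPKM (log2 0.17) and Myf5, which marks undifferentiated myoblasts, at 38.5 and 29.0 FPKM (log2 -0.40). Notch3, a receptor of reserve cells, was at 36.3 and 28.6 FPKM (log2 -0.34), and of 19 Notch and Wnt genes 7 were down and 2 up at 0.26. The larger of those 2 was Hes6, a bHLH factor, at 27.6 and 49.4 FPKM (log2 0.82). Dkk2, a Wnt inhibitor, was down, at 3.86 and 2.12 FPKM (log2 -0.64).

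Genes of DNA replication and mitosis were lower in si-hnRNPL as a group. All 61 members of these 2 lists had a change below 0, with an interval without 0 for 27 of 31 and 27 of 30, 12 of them were down at 0.58 and 49 at 0.26, and the median was -0.41, so that 12 of the 78 protein-coding genes down came from these lists. The 31 replication genes summed to 837 FPKM in si-NC and 632 FPKM in si-hnRNPL. Mcm5 and Mcm3, subunits of the replicative helicase, were at 19.5 and 12.1 FPKM (log2 -0.64) and at 26.9 and 17.2 FPKM (log2 -0.62), and Pola1 and Pole, polymerase subunits, were at log2 -0.67 and -0.65. Cdc45, a helicase cofactor, was at log2 -0.59, and the sliding clamp Pcna was at 166 and 124 FPKM (log2 -0.41). The highest member was Gins4 (log2 -0.08).

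The 30 mitosis genes summed to 895 and 686 FPKM. Top2a, which untangles chromosomes, was at 64.3 and 42.2 FPKM (log2 -0.60, interval -0.65 to -0.55), Mki67, the proliferation marker, at 24.3 and 15.5 FPKM (log2 -0.62), and the spindle motor Kif11 at 18.2 and 11.8 FPKM (log2 -0.59). Cenpe and Bub1, of the kinetochore, were at log2 -0.63 and -0.61, and the mitotic kinase Cdk1 at log2 -0.32. Ccnb2, its cyclin, was the member nearest to 0, at 38.2 and 37.7 FPKM (log2 -0.02, interval -0.13 to 0.09).

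Around the entry into S phase, Ccnd1 and Ccne2, cyclins of G1, were at 31.9 and 20.4 FPKM (log2 -0.62) and at 11.04 and 6.87 FPKM (log2 -0.61). The inhibitor Cdkn1a (p21) was at 355 and 447 FPKM (log2 0.33) and Gadd45a at 69.8 and 91.0 FPKM (log2 0.38). These cyclins and Cdkn1a thus stood on opposite sides. Over this list of 20 entries 2 were down and none up at 0.58, and 7 were down and 3 up at 0.26. The list's median was -0.127, or -0.207 over 19 entries with length and GC content taken out. The increases of Cdkn1a and Gadd45a thus do not stand for the list. Replication-dependent histones did not follow the replication genes, with 6 of 25 entries up and none down at 0.58, but 4 of the 25 had an interval without 0. Their transcripts lack polyA tails and come from near-identical copies, so their values in polyA RNA are uncertain.

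Promoters of 3 members are printed because their genes carry these opposite patterns, as the 150 bases before the RefSeq start (GRCm38.p6, a later build than that of the files). Capitals mark, on either strand, CCAAT, the cell-cycle element CHR (TTTGAA) and the muscle E-box CAGCTG.
Top2a, chr11:99024190-99024339, - strand: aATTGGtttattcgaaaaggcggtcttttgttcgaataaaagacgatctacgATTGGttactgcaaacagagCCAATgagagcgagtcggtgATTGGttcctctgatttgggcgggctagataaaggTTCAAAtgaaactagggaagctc
Kif11, chr19:37376232-37376381, + strand: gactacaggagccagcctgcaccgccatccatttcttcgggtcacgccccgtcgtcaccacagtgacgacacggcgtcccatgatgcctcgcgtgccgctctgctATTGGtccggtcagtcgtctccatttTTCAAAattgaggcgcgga
Mylpf, chr7:127211458-127211607, + strand: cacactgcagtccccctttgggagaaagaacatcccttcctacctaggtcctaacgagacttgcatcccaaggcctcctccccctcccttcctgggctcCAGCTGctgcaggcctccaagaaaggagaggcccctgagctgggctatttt

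Top2a held 4 CCAAT boxes and a CHR, Kif11 one of each, and Mylpf an E-box. In the 250 bases before the start, CCAAT occurred in 19 of 25 mitosis genes with a promoter in the table and in 15 of 25 replication genes, CHR in 7 and in 3. CAGCTG occurred in 5 of 12 thin filament, 3 of 9 myosin and 4 of 15 Z-disc genes, so most genes of these lists lacked the E-box printed for Mylpf. An E2F motif (TTTCGCGC or TTTGGCGC) was also searched. It occurred in 4 of 25 replication and 1 of 25 mitosis genes, against 1.41% of all protein-coding members. Over all protein-coding members the shares were 37.0% for CCAAT, 10.1% for CHR and 11.6% for CAGCTG, but a promoter was matched for only 8518 of 10745 symbols. That is too few for a check of the lists against all genes, so these shares are given as a description. The motifs were searched after the values were seen, and a match is a description of letters, not a bound site.

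Housekeeping lists of short transcripts were slightly higher. Members with a mean of 100 FPKM or more had a median of 0.13, as given above, and the part of level in these lists was not tested. Of 76 oxidative phosphorylation genes 29 were up and none down at 0.26 (median 0.24), and of 79 cytosolic ribosomal protein genes 28 were up and none down (median 0.23). Past 0.58 were Ndufb2, at 63.3 and 107 FPKM (log2 0.75), Cox5b, at 154 and 252 FPKM (log2 0.70), and Rpl13, at 474 and 743 FPKM (log2 0.65). Mitochondrial ribosomal proteins had 13 of 75 up at 0.26 (Mrpl55, log2 0.59), proteasome subunits 3 of 35 (Psmb10, log2 0.59) and tubulins 4 of 11, with Tubb3, the neuronal type, at 50.7 and 39.3 FPKM (log2 -0.36). Of 15 glycolysis genes 7 were up and 2 down, with Gapdh at 823 and 1060 FPKM (log2 0.36), Eno1 at log2 0.36 and Pfkp at log2 -0.34.

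The change followed transcript structure. Across 10676 protein-coding members Spearman's rho was -0.45 between the change and transcript length and 0.42 between the change and GC content, as a description over genes that share the same 2 libraries. With members ranked by length into 5 classes of equal size, the median went from 0.13 in the shortest class to -0.13 in the longest, where 28 genes were down and none up at 0.58. By GC content it went from -0.12 in the lowest class to 0.10 in the highest. Depth and rRNA content also differed between the libraries, and the part of either in this trend was not tested.

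**Figure D3:**
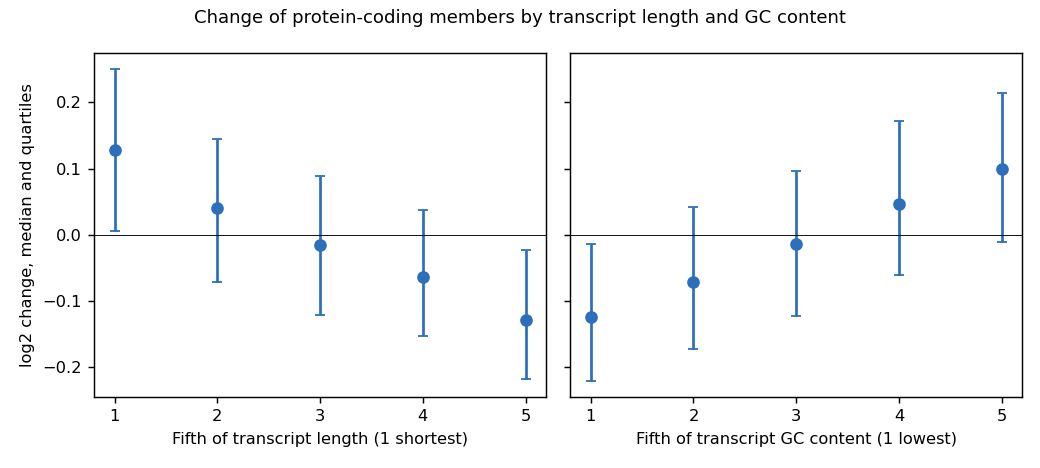
The median log2 change of protein-coding members (points) and its quartiles (bars) are plotted for 5 classes of equal size by transcript length, from shortest to longest, and by GC content, from lowest to highest. The median declines from 0.13 to -0.13 with length and climbs from -0.12 to 0.10 with GC content.

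With the medians of bins of length and GC content taken out, 44 protein-coding genes were up at 0.58 in place of 86 and 53 down in place of 78, of which 37 and 36 were the same genes. At 0.58 the calls in the lists were mostly lost, with 1 member of the 8 muscle lists up and 1 down in place of 12 and none, and with 5 replication and mitosis genes down in place of 12. At 0.26 the muscle lists had 42 members up and 3 down, with a median of 0.14 (thin filament 0.32, dystrophin complex -0.03), and the replication and mitosis lists had 47 of 61 down and none up, with a median of -0.41. Glycolysis genes were at 0.16. Oxidative phosphorylation genes moved to 0.08, cytosolic ribosomal proteins to 0.06 and mitochondrial ribosomal proteins to 0.01. Among single genes, Ankrd2 was at 0.89 and Nov at -1.11 after this step, Mylpf at 0.45, Acta1 at 0.44 and Top2a at -0.46, so that the last 3 no longer reached 0.58. Rescaling without small RNA and rRNA genes left the replication list at -0.52, the mitosis list at -0.53 and the thin filament list at 0.32.

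**Figure D4:**
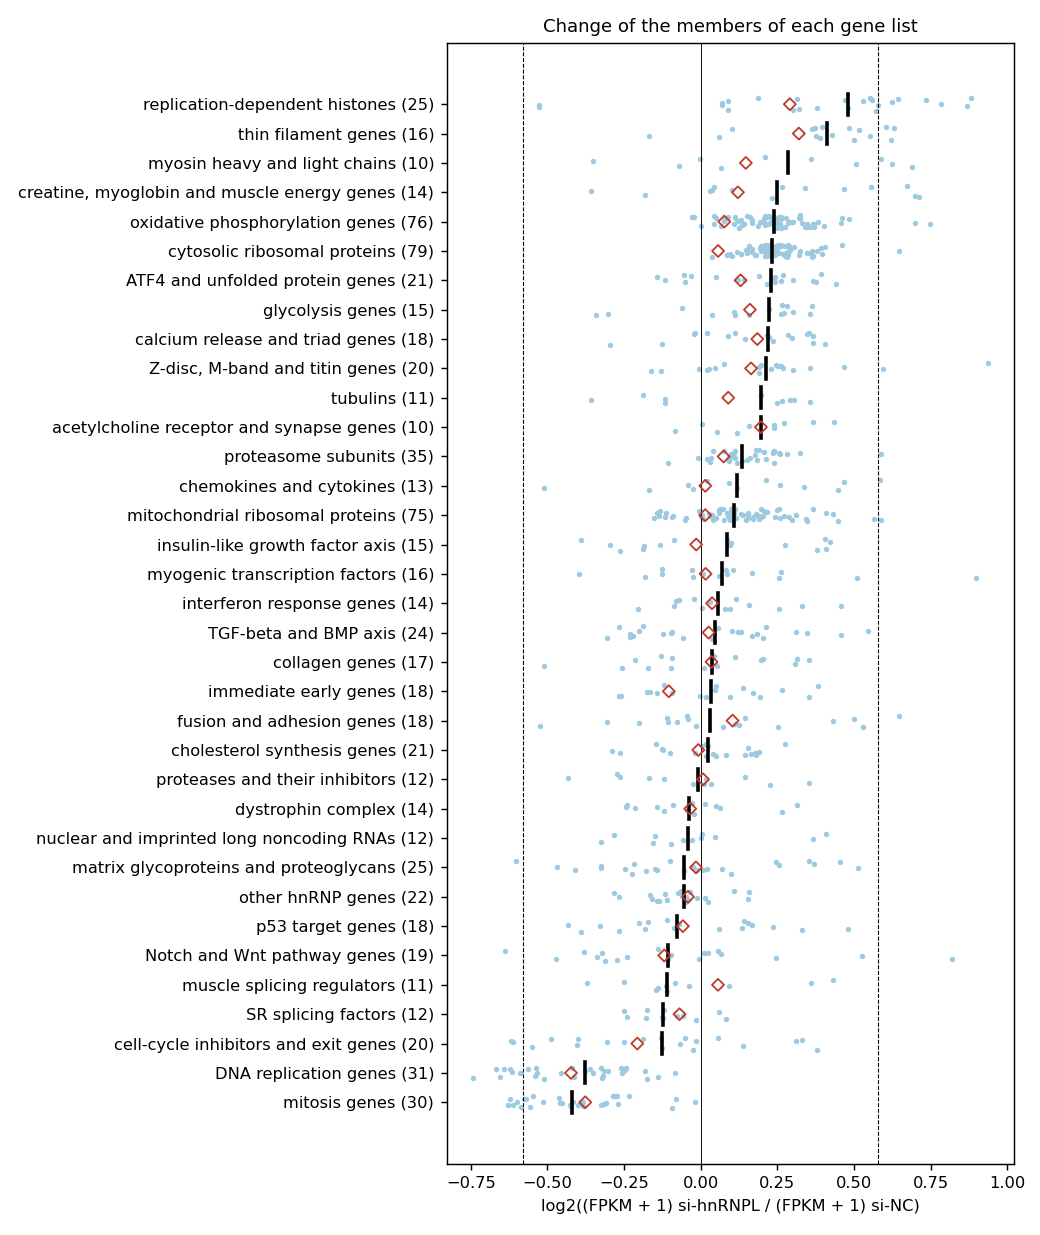
The log2 change of each member (blue points) is plotted for the gene lists with 10 or more members, whose number stands in brackets, with the list's median (black bar), its median after removal of the dependence on length and GC content (red diamond) and dashed lines at 0.58 and -0.58. Replication and mitosis genes lie wholly below 0, and the thin filament list stays at 0.32 after the removal, while the ribosomal and oxidative phosphorylation lists move to between 0.01 and 0.08.

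Matrix and signalling genes differed one by one rather than as lists. Of 17 collagen genes 3 were up and 1 down at 0.26, with Col12a1 at 49.96 and 64.1 FPKM (log2 0.35), Col6a2 at log2 0.31 and Col8a1 at 28.3 and 19.5 FPKM (log2 -0.51). In a list of 25 other matrix glycoproteins and proteoglycans, without Fbln7, Aspn and Omd, 1 gene passed 0.58, Tnc (tenascin C), at 46.9 and 30.5 FPKM (log2 -0.60), and Dcn, decorin, was at 330 and 238 FPKM (log2 -0.47). Of 12 proteases and inhibitors none passed 0.58, with Plau, the urokinase, at 120 and 88.5 FPKM (log2 -0.43) and Mmp2 at log2 0.36. In the CCN family Nov and Wisp2 diverged, the latter being at 13.6 and 22.9 FPKM (log2 0.72). Prl2c5, of the growth-related proliferins, was at 3.63 and 1.96 FPKM (log2 -0.64), from near-identical gene copies that share reads.

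Of 15 genes of the insulin-like growth factor axis 5 were up and 3 down at 0.26, with Igfbp7 at log2 0.42, Igfbp6 at 0.40 and Igfbp2 at 274 and 209 FPKM (log2 -0.39). Of 24 TGF-beta and BMP genes none passed 0.58. The smooth muscle type targets Tagln and Acta2 were at 104 and 152 FPKM (log2 0.55) and at 549 and 753 FPKM (log2 0.46), and Lmod1, a smooth muscle leiomodin, was up at 1.87 and 3.37 FPKM (log2 0.60). The medians of the insulin-like growth factor, TGF-beta, collagen, fusion, interferon, immediate early, cholesterol and myogenic factor lists lay within 0.1 of 0. No direction is given for these lists. Their medians changed sign when FPKM were rescaled, but that step moved the median of all members by -0.096. The sign change follows from this shift and says nothing of the lists themselves.

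Stress and defence genes were nearly all within 0.58, while several lists held more calls at 0.26 than the 9.35% up and 8.7% down of all members. Of 14 interferon response genes none passed 0.58 and 2 were up at 0.26, Isg20 (log2 0.46) and Ifit3 (0.33). Of 18 immediate early genes 3 were up and 2 down at 0.26, led by Jund (log2 0.38) and Nr4a1 (0.36), and of 18 p53 targets 2 were up and 4 down, with Fas at log2 0.48 and Gtse1 and Zmat3 at log2 -0.43 and -0.39. The unfolded protein and ATF4 list had 7 of 21 up and none down at 0.26 (median 0.23, or 0.13 with length and GC content taken out), led by Chac1, at 10.7 and 14.8 FPKM (log2 0.44), Trib3 (0.39) and Sdf2l1 (0.38). Of 13 chemokines and cytokines 4 were up and 1 down at 0.26, and Ccl8 was up at 0.58, at 10.3 and 15.9 FPKM, and Il33 was at 8.499 and 5.66 FPKM (log2 -0.51). Of 21 cholesterol synthesis genes 1 was up and 2 down at 0.26.

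Noncoding RNA genes gave the most extreme values and the least certain ones. Of 29 small RNA or rRNA entries past 0.58, 25 rested on 6 or fewer implied fragments in each library, and 4 had an interval without 0. These were Rn45s, at 383 and 954 FPKM (log2 1.31), Rpph1, the RNA of RNase P, at 2.02 and 19.3 FPKM (log2 2.75), Rmrp, the RNA of RNase MRP, at 6.05 and 37.2 FPKM (log2 2.44), and Rprl3, at 1.41 and 13.8 FPKM. All are transcripts without a polyA tail, and in total RNA Rpph1 was at 1441 FPKM in MB and 1444 FPKM in MT. The higher rRNA share of the si-hnRNPL library was given above, and its part in the other changes was not tested.

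Among long noncoding RNAs, Lincmd1, the muscle transcript that binds microRNAs, was at 4.72 and 10.2 FPKM (log2 0.96, interval 0.45 to 1.48), and Smim5, which the annotation lists as noncoding, at 2.46 and 5.90 FPKM (log2 1.00). C130080G10Rik and Epb41l4aos were at log2 0.88 and 0.87. Airn, the imprinted antisense RNA of the Igf2r locus, was at 6.24 and 2.88 FPKM (log2 -0.90, interval -1.63 to -0.17), and Gm20319 at log2 -0.78, while Brip1os and Gm1976 were at log2 -0.51 and -0.38. Airn overlaps a coding gene, and reads of overlapping genes may be shared. H19, the imprinted RNA abundant in differentiating muscle, was at 1432 and 1901 FPKM (log2 0.41). Of 12 well-known nuclear and imprinted RNAs none passed 0.58.

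The mRNAs with a seed match of the si-hnRNPL guide were slightly lower than the rest. Of 10431 genes with a 3′ UTR of at least 50 bases, 1177 (11.3%) held TTTACCA, the complement of the seed. Their median change was -0.09 against -0.003 without it, a difference of -0.087, and within 4 classes of UTR length it was between -0.071 and -0.027. It was 0.007 with the dependence on length and GC content taken out. The seed of the second hnRNPL siRNA, which was not in this library, gave a difference of -0.090 over all genes and that of si-NC one of -0.035. The mRNAs with CACACA, a sequence of the kind hnRNPL binds, were 39.7% of genes. Their median differed by -0.060 from that of the rest, but within the 4 classes of UTR length the difference ranged from 0.025 to -0.001.

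The genes lower in si-hnRNPL were for the most part genes lower in MT than in MB. The total RNA libraries took no part in the choice of these genes, and 9428 members had at least 1 FPKM in each of them, of which 11.8% were up and 29.1% down from MB to MT at 0.58. Of the 78 protein-coding genes down in si-hnRNPL, 55 could be compared, and 49 of them were lower in MT and 3 higher, with a median MB to MT change of -2.01. Of the 86 up, 53 could be compared, and 23 were higher in MT and 11 lower, with a median of 0.06, against -0.24 for the members inside the limits. The minimum of 1 FPKM leaves out genes that are near 0 in MB, among them Ankrd2, Trim72, Csrp3, Apoe, Tceal7 and, of the genes down, Nov. Without it, a setting added after seeing the data, 14% of protein-coding members were up and 28.2% down from MB to MT, and of 79 genes up in si-hnRNPL 48 were higher in MT and 11 lower, with a median of 1.25. Of 68 genes down, 54 were lower in MT and 7 higher, with a median of -1.94.

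Read the other way, of 223 protein-coding genes with an MB to MT change below -2, 59.6% were down at 0.26 in si-hnRNPL and 7.17% up. Of 107 genes above 2, 41.1% were up and 8.41% down, and of 235 such genes without the minimum, 46.0% and 8.09%. Between -0.58 and 0.58 (5434 genes) the shares were 5.12% down and 7.03% up. Over all 9192 genes Pearson's r was 0.22 and Spearman's rho 0.12, or 0.29 with length and GC content taken out. The median change in si-hnRNPL, with length and GC content taken out, was higher in each successive bin of MB to MT change, from -0.33 to 0.17. Without that step the rise was not steady. From the lowest bin to the highest, the medians were then -0.331, -0.067, -0.004, -0.009, -0.016, 0.037 and 0.211. The pairs differ in time, RNA selection and transfection.

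Not every gene followed this. Nefl stood at 38.1 FPKM in MB and 0.138 FPKM in MT and Ccnd1 at 113 and 18.8 FPKM, in the same direction as in si-hnRNPL, whereas Nov stood at 0.274 and 7.46 FPKM, Sirpa at 2.81 and 8.34 FPKM and Airn at 0.268 and 2.97 FPKM, higher in MT but lower in si-hnRNPL. Id3 stood at 211 and 104 FPKM and Tagln at 239 and 78.6 FPKM, lower in MT but higher in si-hnRNPL.

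**Figure D5:**
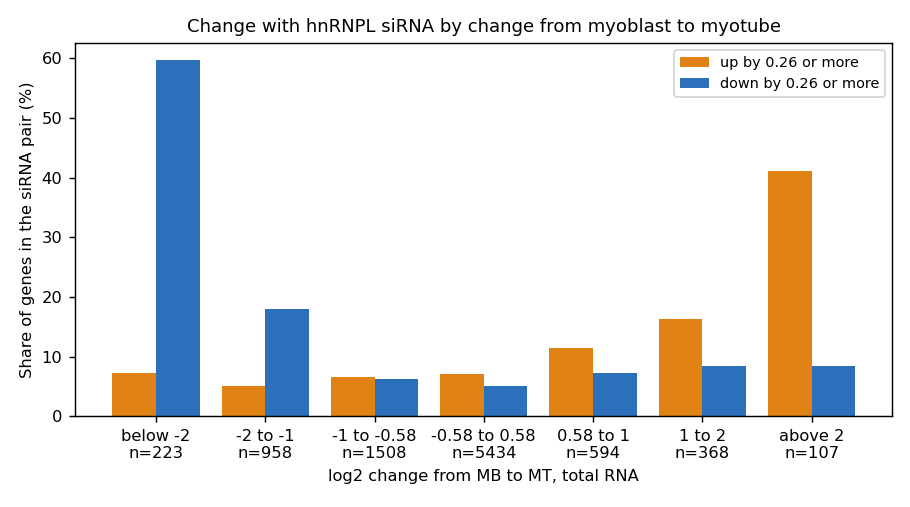
The share of protein-coding genes (vertical axis, %) that were up (orange) or down (blue) by 0.26 or more in si-hnRNPL is plotted by bin of their log2 change from MB to MT in total RNA. The share down is 59.6% in the lowest bin (223 genes) and the share up 41.1% in the highest (107 genes), against 5.12% and 7.03% in the middle bin.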

How the data were processed

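The authors aligned reads of at least 36 bp to mm9 using TopHat and ran Cufflinks for abundance; they deposited FPKM values with 95% intervals, 1 library per condition and no raw counts. Rows of si-hnRNPL and si-NC were joined on symbol and locus, kept at 1 FPKM or more in both, and compared as log2 of FPKM + 1, which understates the change of low genes. The interval of a change joins both Cufflinks intervals in quadrature and covers error within a library only. Implied fragments are (2 x FPKM / (upper bound - FPKM)) squared and are no read counts. With 1 library a side no test was run, and values are descriptions. Gene types and transcripts came from GENCODE (mm9) for 10872 members and from RefSeq for 180, and 38 had none. For the structure step, medians of 20 bins of length and of 20 bins of GC content were subtracted over 3 rounds.

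Named genes are Hnrnpl, genes near seRNA-1 and seRNA-2, the 15 largest increases and decreases among protein-coding members and the 4 largest among long noncoding ones with intervals without 0, and in each of 49 lists (8 of markers) the members past 0.58 or else the 3 farthest from 0. A few others (such as Ogn, Neb, Ccnb2 and Gins4) were named after their values were seen, and some genes that the rule selects are not reported here. The members and lists were chosen with earlier results of these data known. siRNA sequences came from the study's oligonucleotide list and promoters from RefSeq. The alternatives were other pseudocounts, filters, centring, rescaling, the structure step and summed symbols. Scripts used Python 3.11.15, numpy 2.4.6 and pandas 2.3.3 and were tested on simulated data.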

Additional observations from a re-analysis of the deposited data

How the results depend on the processing

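The 126 entries up became 198 with a pseudocount of 0.1, 213 with 0.01, 76 at 5 FPKM or more in both libraries and 44 with length and GC content taken out (protein-coding genes only). The 84 down became 158, 166, 47 and 53 under the same settings and 227 with FPKM rescaled without small RNA and rRNA genes. That rescaling put Hnrnpl at -0.25, as its construction implies, since the FPKM kept sum to more in si-hnRNPL. The fewer calls at 5 FPKM and in the structure step come in part from testing fewer entries. Without the 1 FPKM minimum in total RNA, chosen after seeing the data, the median MB to MT change of genes up was 1.25 in place of 0.06. Under no filter, centring or summed symbols the counts stayed within 1.5 times. The 6-base seed match and the longer CA repeat gave differences of -0.088 and -0.060. Over the alternatives, 38 values of list medians moved by more than an error set by the list's quartiles and size and 327 by less, and 23 values of named genes left the gene's own 95% interval and 121 stayed in it. No paired analysis was possible because each condition has 1 library, and for the same reason no replicate could be left out. Depth limits low genes, and a Cufflinks interval says nothing of the spread between cultures.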
